A study of Mus musculus with 48 samples.

Results

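The glutathione transferases and the genes that answer to the transcription factor NRF2 were followed through the livers of Wfs1 mutant mice given valproic acid (VPA). The 36 genes were a fixed list of names: 21 glutathione transferases (GST), Nfe2l2, which encodes NRF2, its inhibitor Keap1, and 13 enzymes and transporters of glutathione supply, thiol recycling and drug metabolism. Probesets of the array were taken by gene symbol, which gave 41 of the 35556 probesets measured. Of these, 35 carried 1 symbol and 6 carried several, so 33 genes had a probeset of their own. Gsta1 and Gsta2 shared 4 probesets with each other and with Gm10639 and Gm3776, and Gstp2 shared 2 with Gstp1. Counting each such set of genes once left 35 units.

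The mice were males in 6 groups of 8, with 1 array per liver. WT mice were Wfs1 +/+, HZ mice Wfs1 +/- and KO mice Wfs1 -/-, and mice of each genotype received either VPA at 300 mg/kg or saline (SAL) at 10 mL/kg. Injections into the peritoneum were given daily for 12 weeks from an age of 4 to 6 weeks, and livers were taken at 16 to 18 weeks. All 48 mice, controls included, had a glucose tolerance test with 2 g/kg glucose 24 hours after the last injection and were killed 24 hours after it. Wfs1 encodes wolframin, which sits in the membrane of the endoplasmic reticulum. The mutation is present in every cell of the body. Because only part of the gene was removed, the whole-gene array signal of Wfs1 does not check the genotype. The study reports lower signal of the removed exons in KO mice, without showing the data, and Wfs1 levels by qRT-PCR that depended on genotype. Hepatocyte markers had a mean log2 level between 13.5 and 13.8 in every mouse.

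GSTs join the tripeptide glutathione to reactive compounds, and the cytosolic classes are named by Greek letters. Under oxidative or electrophilic stress NRF2 escapes its inhibitor KEAP1, pairs with small MAF proteins and binds antioxidant response elements near genes of glutathione synthesis, thiol recycling and quinone reduction. Many hepatic GSTs also differ between male and female mice, because the pattern of growth hormone release differs between the sexes.

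Where the results later turn on a gene, its upstream sequence shows whether the core letters of such an element lie close to the start. RefSeq windows of 300 bases, from 250 before to 50 after a transcription start (GRCm38.p6), were at hand for 32 of the 36 genes, in 45 windows. Gclc, Gsr, Gstt2 and Gsta4 had no window. The core TGACNNNGC, read on both strands, was found in 12.4% of all 32851 windows and in 8 of the 45 member windows, those of Gclm, Gsta3, Gstm5, Gstm7, Mgst1, Nfe2l2, Srxn1 and Txnrd1. The related letters TGANTCAGC, bound by NRF2 and its MAF partners and overlapping the core where N is C, were added after the windows had been read. They occurred in 1.19% of all windows and in 3 member windows, those of Gstp1, Gstp2 and Srxn1. Gstp1 and Gstp2 are shown because both pi class signals fell in KO mice, Mgst1 because it fell beside them, and Gstm5 because it rose with VPA. The 250 bases before the start are given 5′ to 3′ along the gene, with matches to either set of letters in capitals.
Gstp1 (chr19:4037913-4038162, minus strand): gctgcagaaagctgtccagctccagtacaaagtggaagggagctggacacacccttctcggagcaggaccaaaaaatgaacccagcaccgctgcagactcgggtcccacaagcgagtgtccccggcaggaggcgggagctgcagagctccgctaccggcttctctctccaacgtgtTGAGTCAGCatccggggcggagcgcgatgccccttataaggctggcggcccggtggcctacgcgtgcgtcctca
Gstp2 (chr19:4042222-4042471, minus strand): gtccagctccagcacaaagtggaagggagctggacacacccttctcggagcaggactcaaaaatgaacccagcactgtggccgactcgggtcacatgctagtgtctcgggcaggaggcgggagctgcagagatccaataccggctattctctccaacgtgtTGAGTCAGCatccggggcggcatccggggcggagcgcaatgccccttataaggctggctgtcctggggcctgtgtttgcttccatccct
Mgst1 (chr6:138140277-138140526, plus strand): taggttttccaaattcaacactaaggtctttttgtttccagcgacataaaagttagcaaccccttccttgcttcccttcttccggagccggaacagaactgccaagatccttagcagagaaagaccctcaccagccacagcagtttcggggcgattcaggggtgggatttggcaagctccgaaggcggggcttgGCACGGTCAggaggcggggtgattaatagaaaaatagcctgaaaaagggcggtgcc
Gstm5 (chr3:107895604-107895853, plus strand): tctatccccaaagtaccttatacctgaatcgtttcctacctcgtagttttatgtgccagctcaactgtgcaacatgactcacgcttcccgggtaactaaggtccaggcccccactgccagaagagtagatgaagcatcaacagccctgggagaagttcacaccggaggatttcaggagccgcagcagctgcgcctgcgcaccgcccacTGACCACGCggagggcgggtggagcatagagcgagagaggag

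The upstream windows of the neighbouring genes Gstp1 and Gstp2 were identical in 78.5% of aligned positions, and TGAGTCAGC ended 65 bases before the start of Gstp1 and 80 before that of Gstp2. In Mgst1 the match is on the reverse strand and ends 47 bases before the start, and in Gstm5 it ends 33 bases before it. No member window held the E-box CACGTG or the D-box TTATGTAA of the circadian clock, which occurred in 7.15% and 0.938% of all windows. A match describes letters and is not a site, and its absence says only that the letters are not in the window.

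Loss of Wfs1 shifted several transferases in opposite directions while NRF2, KEAP1 and the glutathione-making enzymes did not pass the test. Between KO and WT mice over both treatments, 10 of the 35 units were called at an adjusted p under 0.05 (limma with Benjamini-Hochberg adjustment over all probesets). Microsomal Mgst3, theta class Gstt3 and Gstt2, alpha class Gsta4, mu class Gstm2, the quinone reductase Nqo1 and the carbonyl reductase Cbr1 rose. Gstp1, the shared Gstp1/Gstp2 probeset and microsomal Mgst1 fell. The members called were 28.6% of the units, against 2.94% of all probesets and 3.87% of probesets with 1 symbol. The members were chosen with earlier results of these data known, so this excess is not independent evidence about the family. Of all probesets 1.37% rose and 1.57% fell. The median difference over the 35 units was near 0 on the log2 scale, 0.00 against 0.01 over all probesets, and 18 units were higher and 17 lower. The neighbouring Gstp1 and Gstp2 share probes, so their signals are not independent.

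**Figure D1:**
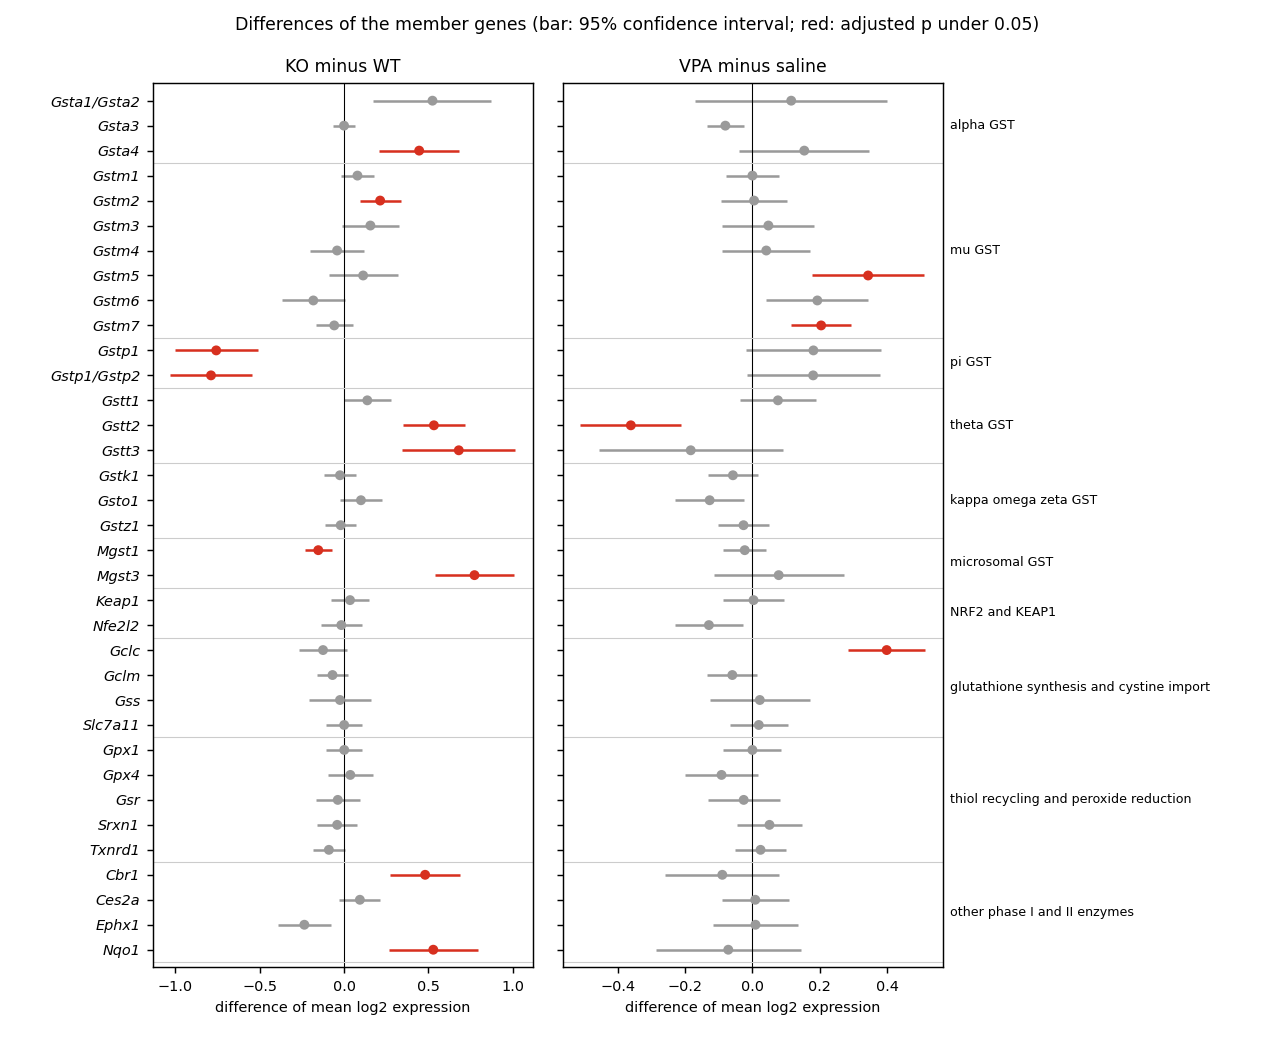
Differences of the 35 member units on the log2 scale for KO minus WT mice (left) and VPA minus saline mice (right), each averaged over the other factor, with 95% confidence intervals; the axes of the panels differ, and red points passed an adjusted p of 0.05. The pi class lies furthest to the left and Mgst3 furthest to the right in KO mice, while Gclc stands furthest to the right with VPA.

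Pi class transferases conjugate small electrophiles and are abundant in male mouse liver. Gstp1 ran from 12.19 over a median of 12.97 to 13.70 on the log2 scale in WT SAL mice, and from 11.61 over 12.08 to 12.95 in KO SAL mice. With VPA it ran from 12.91 over 13.12 to 13.46 in WT mice and from 11.93 over 12.42 to 12.82 in KO mice. The VPA groups did not overlap, whereas the saline groups did, and 15 of the 16 KO livers were under the WT average. Gstp1 was 1.69-fold lower in KO mice, a log2 difference of -0.76 ± 0.12 (SE) with an adjusted p of 7.96e-05. For the Gstp1/Gstp2 probeset the difference was -0.79 ± 0.12 (adjusted p = 3.22e-05), and 10 of 16 KO mice were below every WT mouse. A second shared probeset differed by -0.80. In saline mice alone the Gstp1 difference was -0.81 (adjusted p = 0.0106) and under VPA -0.71 (adjusted p = 0.0444), and the latter missed the threshold in 20 of 48 fits that each left out 1 mouse (-0.77 to -0.64).

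The membrane-bound Mgst3, which makes leukotriene C4 and reduces lipid peroxides, had the largest rise among the members. It ran from 7.23 over 7.89 to 8.23 in WT SAL mice and from 7.79 over 8.67 to 9.33 in KO SAL mice. Under VPA the WT range was 7.59 to 8.23 around a median of 7.91, and the KO range 8.35 to 9.05 around 8.71. KO mice given VPA all exceeded the WT mice given VPA, and 14 of 16 KO mice exceeded every WT mouse. The rise was 1.71-fold, 0.77 ± 0.12 on the log2 scale (adjusted p = 3.15e-05). It was 0.75 in saline mice (adjusted p = 0.0134) and 0.79 with VPA (adjusted p = 0.0103). Without the KO SAL mouse of replicate 4 the rise in saline mice was 0.64 and no longer called (adjusted p = 0.0632).

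Mgst1, a glutathione transferase and peroxidase of the endoplasmic reticulum and outer mitochondrial membrane, varied little between mice. Its log2 level was 13.33 to 13.67 in WT SAL mice and 13.14 to 13.41 in KO SAL mice, with medians of 13.47 and 13.38. The groups overlapped, and 15 of the 16 KO livers were under the average of the WT mice. The fall was small, -0.15 ± 0.04 or 1.11-fold (adjusted p = 0.019), and it was the only member holding the core letters near its start that was called between KO and WT mice. With only the arrays of these genotypes in the fit its adjusted p was 0.0557.

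Theta class enzymes conjugate small halogenated compounds and hydroperoxides, and Gstt1, Gstt2 and Gstt3 lie next to each other. Gstt3 rose 1.60-fold in KO mice (0.68 ± 0.17, adjusted p = 0.0123), from medians of 9.50 and 9.54 in WT SAL and WT VPA mice to 10.22 and 10.38 in the KO groups. The KO mice were widely spread, from 9.28 to 11.12 with VPA, and 8 of 16 exceeded every WT mouse. Gstt2 rose 1.45-fold (0.53 ± 0.09, adjusted p = 0.000203), by 0.24 in saline mice and 0.82 in mice given VPA. The saline difference was not called. With VPA, mean Gstt2 went from 9.368 to 8.927 in WT mice and from 9.61 to 9.749 in KO mice. Gstt1 was 0.14 higher in KO mice without passing the test (adjusted p = 0.374).

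In the alpha class, whose members detoxify lipid aldehydes and steroid intermediates, the results divided. Gsta4, which removes 4-hydroxynonenal, ran from 9.91 over 10.18 to 10.76 in WT SAL mice and from 10.11 over 10.65 to 11.36 in KO SAL mice. The rise over both treatments was 1.36-fold (0.44 ± 0.12, adjusted p = 0.0234), with overlapping groups and 8 of 16 KO mice above every WT mouse. One WT VPA mouse lay at 9.28, below the others of its group, and the call was lost without the KO SAL mouse of replicate 4 (0.40, adjusted p = 0.0537) and with only the arrays of WT and KO mice (adjusted p = 0.0592). The 4 probesets shared by Gsta1 and Gsta2 were 0.41 to 0.52 higher, with adjusted p-values of 0.082 to 0.0979. Gsta3, the least variable member, differed by 0.00 (-0.07 to 0.07).

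Of the 7 mu class genes, which lie side by side, Gstm2 was called. It ran from 9.73 to 10.13 in WT SAL mice and from 9.99 to 10.25 in KO SAL mice, and from 9.71 to 10.29 and 10.07 to 10.56 with VPA. All 16 KO mice were above the WT mean, and the rise was 1.16-fold (0.21 ± 0.06, adjusted p = 0.0371). Leaving out 1 mouse gave 0.19 to 0.23 and ended this call in 13 of 48 fits, and so did centring each array on its median (adjusted p = 0.0643). On the probeset that represents each gene, the other 6 ranged from -0.18 for Gstm6 to 0.16 for Gstm3. A second Gstm3 probeset had means of 10.92 (SAL) and 11.11 (VPA) in WT mice, and of 11.13 and 11.56 in KO mice. The kappa, omega and zeta class genes Gstk1, Gsto1 and Gstz1 ranged from -0.02 to 0.10 and none was called.

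**Figure D2:**
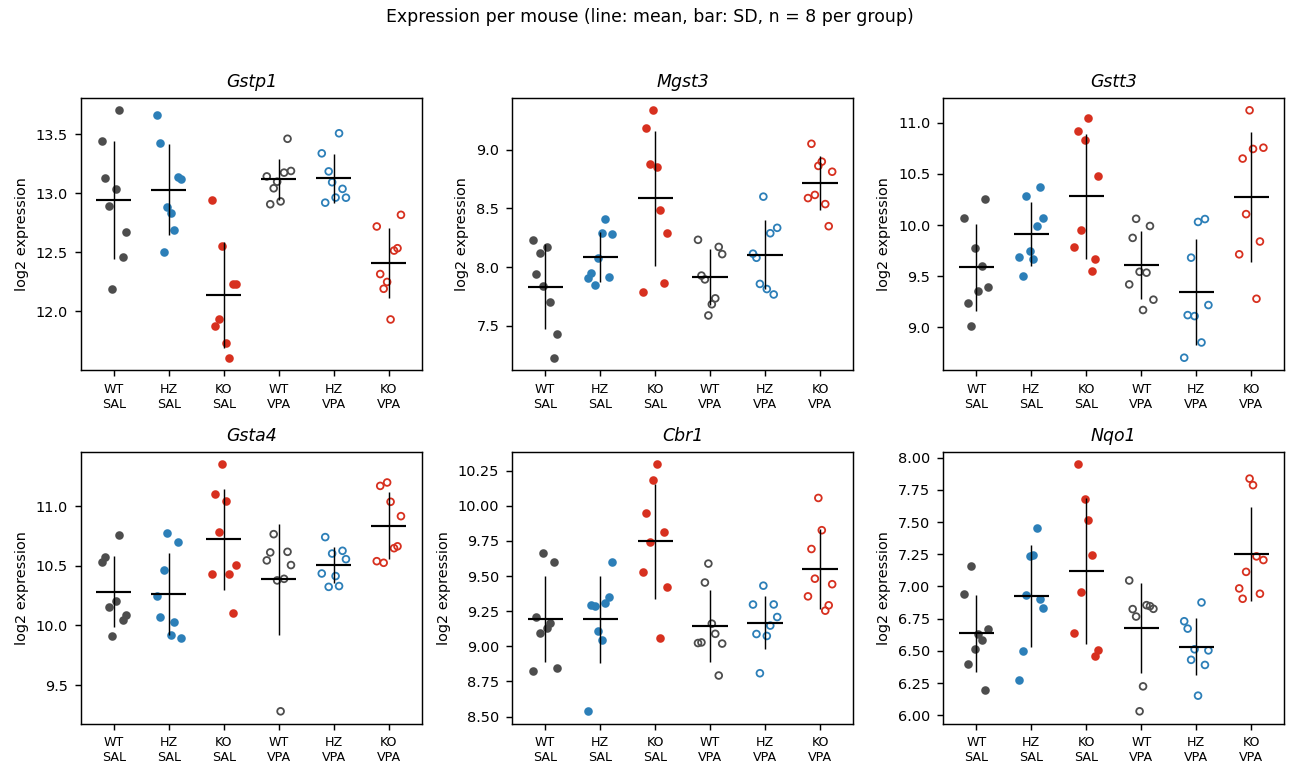
Log2 expression per mouse of 6 members in the 6 groups, with filled points for saline (SAL), open points for VPA, the group mean as a line and the SD as a bar (n = 8). Gstp1 is lower and the other genes are higher in KO mice (red), and most KO SAL groups are spread wider than the WT SAL groups.

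Nqo1 reduces quinones and is widely used as a readout of NRF2 activity. Its level was 6.19 over 6.60 to 7.16 in WT SAL mice and 6.46 over 7.10 to 7.95 in KO SAL mice (lowest, median, highest). With VPA the ranges were 6.03 to 7.05 in WT and 6.91 to 7.84 in KO mice. The rise was 1.44-fold (0.53 ± 0.13, adjusted p = 0.0137), and the SD among KO SAL mice was 0.57 against 0.30 among WT SAL mice. Cbr1, which reduces carbonyls and prostaglandins, rose 1.39-fold (0.48 ± 0.10, adjusted p = 0.0034), from a median of 9.15 to 9.78 in saline mice and from 9.06 to 9.46 with VPA. The epoxide hydrolase Ephx1 differed by -0.24 with an adjusted p of 0.0899, and the carboxylesterase Ces2a by 0.09 with an adjusted p of 0.557.

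Neither regulator passed the test. Nfe2l2 had medians between 10.84 and 11.10 in all 6 groups and differed by -0.02 (-0.14 to 0.11) between KO and WT mice. Keap1 had medians between 8.74 and 8.81 and differed by 0.04 (-0.08 to 0.15). RNA levels do not report the amount or location of the NRF2 protein. Gclc and Gclm, the subunits of the rate-limiting enzyme of glutathione synthesis, differed by -0.12 and -0.07, glutathione synthetase Gss by -0.02 and the cystine importer Slc7a11 by 0.00. None of these 4 was called, nor were the 5 genes of thiol recycling and peroxide reduction, Gsr, Gpx1, Gpx4, Txnrd1 and Srxn1, which ranged from -0.09 to 0.04. The adjusted p-values of these 11 genes were 0.395 or higher. Slc7a11 had a mean log2 level of 5.095, below all array medians (6.9 to 7.03), so a change in it could be missed.

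No member was called between HZ and WT mice, against 0.00281% of all probesets, and 1 of 35 units had an unadjusted p under 0.05 (limma). That unit was Gstt2, at 0.27 ± 0.09 (adjusted p = 0.679). The count was also 0 without moderation of the variances. Between KO and HZ mice 6 units were called, against 1.44% of all probesets. Mgst3 (0.55), Gstt3 (0.65) and Cbr1 (0.47) rose and Gstp1 (-0.81), Gstp1/Gstp2 (-0.87) and Mgst1 (-0.16) fell. Both comparisons of KO mice share those mice. Gstp1 in all 16 KO mice lay below the HZ mean. The Gstt3 call was lost in 10 of 48 fits without 1 mouse (0.59 to 0.72) and with only the arrays of KO and HZ mice (adjusted p = 0.0702).

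Within saline mice 3 units were called between KO and WT (Mgst3, Gstp1 and Gstp1/Gstp2), against 0.790% of all probesets, and within VPA mice 4 (the same 3 and Gstt2), against 0.405%. With only the 16 saline arrays of both genotypes in the fit, which takes the spread from those mice alone, the count was 0, with adjusted p-values of 0.252 for Mgst3, 0.192 for Gstp1 and 0.159 for Gstp1/Gstp2. With only the VPA arrays it stayed at 4. Leaving out the KO SAL mouse of replicate 1 brought the saline count to 5, and leaving out the WT VPA mouse of replicate 4, or the KO VPA mouse of replicate 4 or 5, brought the VPA count to 2. Both Gstp1 and Gstp1/Gstp2 lost their calls in each of these 3 fits, where Gstp1/Gstp2 had adjusted p-values of 0.0541, 0.0635 and 0.0876.

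Sex-biased liver genes moved with genotype and varied strongly among KO mice. Of a list of male-biased genes 14 of 15 measured fell in KO mice (median -1.62), and of female-biased genes 12 of 13 rose (median 1.58). Both lists were chosen with results of these mice known and contain genes the study picked from them. An index per mouse, the mean of the female-biased minus the mean of the male-biased genes in SD units, ran from -1.08 to -0.67 in WT SAL mice and from -0.31 over 1.94 to 4.20 in KO SAL mice. With VPA the WT range was -1.51 to -0.71 and the KO range -0.90 to 4.12, around a median of 0.96. Some KO livers thus stood close to WT livers on this index and others far from them. In bulk liver fewer cells of a type and less RNA per cell cannot be told apart.

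Within the 8 KO SAL mice several of the shifted members followed this index. Gsta4 had a Pearson r of 0.908 (exact permutation p = 0.00166, adjusted p = 0.0147) and a Spearman rho of 0.929 (exact p = 0.00223, adjusted p = 0.0223). Mgst3 had an r of 0.924 (exact permutation p = 0.00221, adjusted p = 0.0147) and a rho of 0.929 (exact p = 0.00223, adjusted p = 0.0223). Leaving out the 2 mice furthest from the median index gave r values of 0.934 and 0.844. These tests were two-sided over all 40320 orders of 8 mice, and the p-values were adjusted over 20 relations, 10 called units in each KO group.

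Nqo1 (r = 0.83, rho = 0.833), Gstt3 (r = 0.826, rho = 0.714) and Mgst1 (r = -0.854, rho = -0.857) also passed for r in KO SAL mice, each with an adjusted exact p of 0.0406. For rho their adjusted exact p-values were 0.0615, 0.128 and 0.0615. Without the 2 furthest mice r was 0.795, 0.807 and -0.809. The other 5 units did not pass there. Cbr1 had an r of 0.601 (adjusted exact p = 0.179), Gstm2 of 0.489 (adjusted exact p = 0.296), Gstp1 of -0.419 (adjusted exact p = 0.372), Gstp1/Gstp2 of -0.401 (adjusted exact p = 0.379) and Gstt2 of -0.162 (adjusted exact p = 0.725).

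Among KO VPA mice, 2 stood apart on the index at 3.40 and 4.12, and the others reached 1.46. Cbr1 (r = 0.908, adjusted exact p = 0.0147), Mgst1 (r = -0.828, adjusted exact p = 0.0406), Nqo1 (r = 0.858, adjusted exact p = 0.0406) and Gstp1 (r = -0.783, adjusted exact p = 0.0461) passed there. Their rho values were 0.833, -0.643, 0.548 and -0.81, with adjusted exact p-values of 0.0615, 0.148, 0.228 and 0.0726. Without the 2 furthest mice r was 0.586, -0.666, 0.0518 and -0.734, so the Nqo1 relation rested on those mice. Gsta4 (r = 0.74, adjusted exact p = 0.0616) and Mgst3 (r = 0.566, adjusted exact p = 0.212), which had the highest r in KO SAL mice, did not pass in KO VPA mice. Nor did Gstp1/Gstp2 (r = -0.764, adjusted exact p = 0.054), Gstt3 (r = 0.731, adjusted exact p = 0.0681), Gstt2 (r = -0.219, adjusted exact p = 0.685) or Gstm2 (r = -0.077, adjusted exact p = 0.843). In all, 9 of 20 relations passed for r and 2 of 20 for rho. Relations were computed only for the units called between KO and WT mice. The share of all probesets that follow the index was not computed, so these counts do not set the members apart from other liver genes.

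**Figure D3:**
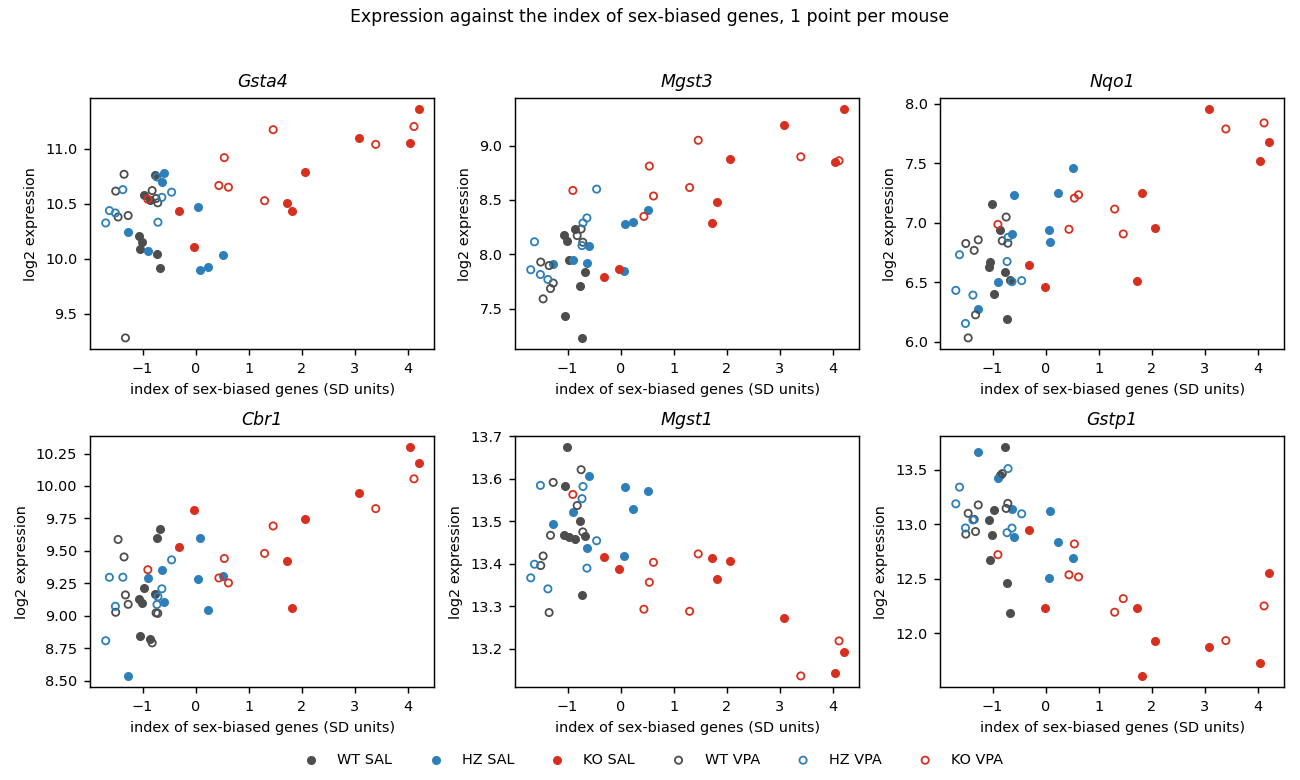
Log2 expression of 6 members against the index of sex-biased genes (mean of female-biased minus mean of male-biased genes, in SD units), 1 point per mouse, with red for KO, blue for HZ and dark grey for WT mice, filled for saline and open for VPA. WT mice lie at the left, and KO mice extend from their range up to an index of 4.20.

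In a fit with this index as a further term, which was tried once the data had been seen, no member remained called between KO and WT mice. The share of all probesets called in that fit was not computed, so this count does not set the members apart from other genes. The Mgst3 difference became 0.18, that of Gstp1 -0.38, and those of Gstt3 and Nqo1 changed sign to -0.008444 and -0.16. Gstt2 kept its size at 0.59 (adjusted p = 0.229), and under VPA it stayed called at 0.88 (adjusted p = 0.0158). The index differs between the genotypes, so such a fit also takes away part of any genotype difference, and its part in the result was not tested.

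Few members passed the test between VPA and saline mice, 48 hours after the last injection. Over the 3 genotypes 4 of 35 units were called, or 11.4%, against 8.61% of all probesets and 10.5% of those with 1 symbol, a share near the background. Gclc, the catalytic subunit of glutathione synthesis, and the mu class genes Gstm5 and Gstm7 rose (of all probesets 4.01% rose), and Gstt2 fell (4.60% fell). The median over the units was 0.01 against -0.02 over all probesets.

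Gclc ran from 11.79 over 12.22 to 12.69 in WT SAL mice and from 12.40 over 12.61 to 12.74 with VPA. In HZ mice it went from 11.83 over 12.02 to 12.17 up to 12.21 over 12.65 to 12.79, and in KO mice from 11.77 over 12.15 to 12.64 up to 12.25 over 12.40 to 12.64. Only the HZ groups did not overlap, and all 24 VPA mice lay above the mean of the saline mice. The rise was 1.32-fold (0.40 ± 0.06, adjusted p = 5.67e-06). Gclm, its regulatory partner, differed by -0.06 (adjusted p = 0.298).

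Gstm5, a mu class gene at the end of its cluster, rose 1.27-fold (0.34 ± 0.08, adjusted p = 0.00649). Its median went from 8.36 to 8.56 in WT, from 8.04 to 8.76 in HZ and from 8.49 to 8.66 in KO mice, and all 3 pairs of groups overlapped. Gstm7 rose 1.15-fold (0.20 ± 0.04, adjusted p = 0.00231), with medians of 11.32 and 11.46 in WT, 11.24 and 11.41 in HZ and 11.19 and 11.54 in KO mice. For both genes the windows held a match to the core letters. The other members with the core (Gclm, Gsta3, Mgst1, Nfe2l2, Srxn1 and Txnrd1) were not called over the 3 genotypes, and Gclc and Gstt2 had no window. The other 5 mu class genes ranged from 0.00 to 0.19.

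**Figure D4:**
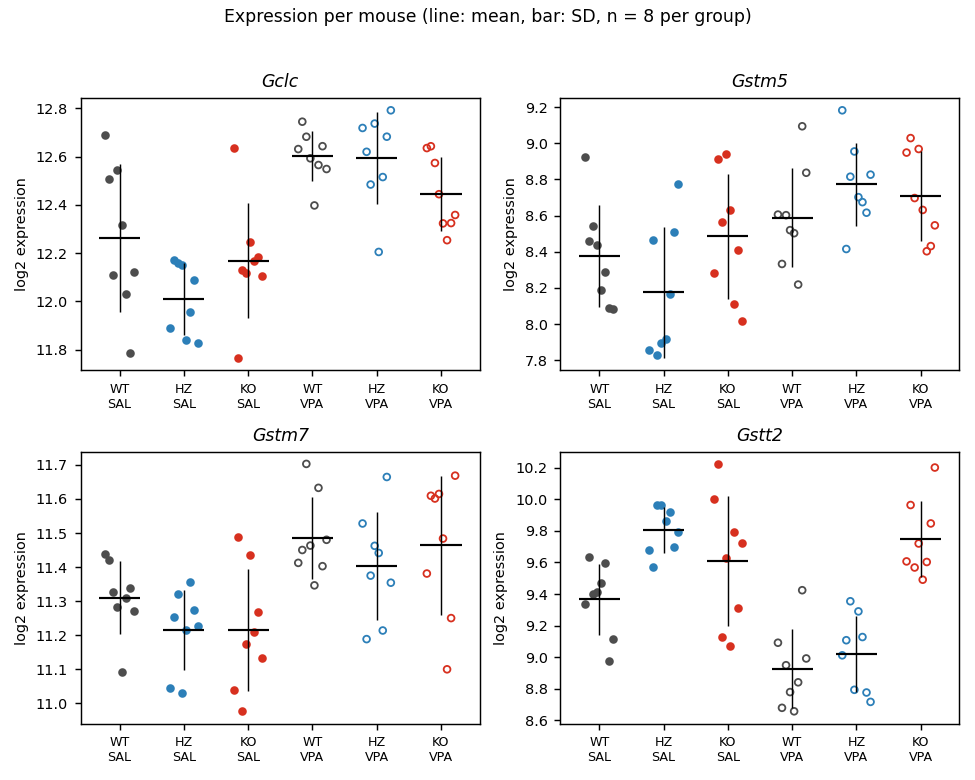
Log2 expression per mouse of the 4 members called between VPA and saline, with filled points for saline (SAL), open points for VPA, the group mean as a line and the SD as a bar (n = 8). Gclc, Gstm5 and Gstm7 have higher means with VPA in each genotype, and Gstt2 is lower with VPA in WT and HZ but not in KO mice.

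By genotype, the calls lay in HZ mice. There 6 of 35 units passed, against 10.5% of all probesets and 12.4% of those with 1 symbol. Gclc (0.58), Gstm5 (0.60) and Gss (0.45) rose (4.72% of all probesets rose), and Gstt2 (-0.78), Gsta3 (-0.25) and the lipid hydroperoxide reductase Gpx4 (-0.27) fell (5.76% fell). Gpx4 was marginal, with an adjusted p of 0.0491, and lost its call in 31 of 48 fits without 1 mouse (-0.32 to -0.24). Gss lost it without the HZ VPA mouse of replicate 4 (0.36) or 8 (0.39), with adjusted p-values of 0.0664 and 0.0503. With only the HZ arrays the adjusted p-values of Gss and Gpx4 were 0.0533 and 0.0592. Mean Gss was lower with VPA in the other genotypes, without being called. It went from 9.823 to 9.516 in WT mice and from 9.686 to 9.605 in KO mice. In WT mice 0 units passed, against 0.0703% of all probesets, with 5 at an unadjusted p under 0.05 (limma). In KO mice 0 units passed, against 0.0112%, with 7 at an unadjusted p under 0.05. Without moderation both counts were also 0. These counts alone do not show that the genotypes differed.

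The interaction tested that difference, and Gstt2 was the member called (F = 13.02, adjusted p = 0.0416, limma), against 0.0816% of all probesets. In WT mice Gstt2 had run from 8.98 over 9.41 to 9.63 with saline and from 8.66 over 8.90 to 9.42 with VPA. In HZ mice the saline range was 9.57 to 9.97 and the VPA range 8.72 to 9.35. In KO mice it was 9.07 over 9.68 to 10.22 with saline and 9.49 over 9.66 to 10.20 with VPA. HZ groups did not overlap, and KO VPA mice all exceeded the WT VPA and HZ VPA mice.

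The Gstt2 difference with VPA was -0.44 in WT mice (-0.70 to -0.18), -0.78 in HZ mice (-1.04 to -0.52) and 0.14 in KO mice (-0.12 to 0.40). KO and HZ mice differed in this effect by 0.92 ± 0.18 (adjusted p = 0.0137), KO and WT mice by 0.58 ± 0.18 (adjusted p = 1). Between KO and WT mice under VPA, Gstt2 was 1.77-fold higher (0.82 ± 0.13, adjusted p = 0.000441). The interaction call was lost in 25 of 48 fits without 1 mouse (F from 11.37 to 17.27) and with the replicate number as a block (adjusted p = 0.0599). Next in order came Gsta3 (F = 9.93, adjusted p = 0.121) and Gss (F = 9.36, adjusted p = 0.139).

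Levels of circadian clock genes, read once in each mouse, differed between the groups. Of 10 clock genes listed as higher when Dbp is high all fell with VPA (median -0.83). Of 4 listed as higher when Arntl is high 3 rose. Between KO and WT mice 7 of the 10 rose (median 0.59) and 2 of the 4 fell. An index of 14 clock genes per mouse ran from -1.50 to -0.75 in HZ SAL mice and from 0.44 to 1.24 in HZ VPA mice. It ran from -0.75 to 0.66 and 0.65 to 1.59 in the WT groups, and from -0.95 to 0.11 and -0.75 to 0.44 in the KO groups. With this index as a covariate 0 members were called for VPA, 0 for VPA in HZ mice, 0 for the interaction and 0 for KO against WT under VPA. How many of all probesets were called with the covariate was not computed, so the member counts from it say nothing particular to the members. The Gclc difference became 0.06, that of Gstm5 0.19, that of Gstm7 0.16 and that of Gstt2 -0.10, with adjusted p-values of 0.809 to 0.922. Other calls were lost without the difference shrinking much. Between KO and WT mice under VPA the difference was 0.96 for Mgst3, -0.76 for Gstp1 and -0.81 for Gstp1/Gstp2, while that of Gstt2 fell to 0.58. In HZ mice it was -0.26 for Gsta3, 0.44 for Gss and -0.55 for Gpx4, against 0.03 for Gclc, 0.34 for Gstm5 and -0.36 for Gstt2. Between KO and WT mice 3 units were then called, Mgst3 (0.87), Gstp1 (-0.79) and Gstp1/Gstp2 (-0.83). Gsta4 (0.45), Nqo1 (0.58) and Cbr1 (0.48) kept their size without passing, with adjusted p-values of 0.189, 0.11 and 0.0882. The index and VPA differ between the same mice and cannot be told apart in the WT and HZ groups.

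Markers of other liver cells also moved with VPA. Of 12 Kupffer cell genes 7 rose (median 0.35), and 9 rose in HZ mice (median 0.69). The mean log2 level of the 12 ran from 8.08 to 8.87 in HZ SAL and from 8.74 to 9.29 in HZ VPA mice. Of 9 endothelial genes 3 rose, and 6 rose in HZ mice (median 0.36). Of 10 stellate cell genes 2 rose, and 4 rose in HZ mice (median 0.28). Of 10 pericentral hepatocyte genes 4 fell, and 4 fell in HZ mice. Of 7 periportal genes Pck1 and Pigr fell with VPA, and of 7 cholangiocyte genes Epcam and Cldn7 fell and Sox9 rose. Tat of 8 hepatocyte, Ly6g of 8 neutrophil and Slc4a1 of 3 erythroid genes also fell with VPA. Of all probesets 8.61% were called with VPA and 10.5% with VPA in HZ mice. Between KO and WT mice 0 Kupffer cell, endothelial, stellate cell and pericentral genes were called. Of 7 periportal hepatocyte genes Hsd17b13 rose and Cyp2f2 and Cdh1 fell in KO mice, and Sox9 of 7 cholangiocyte genes, Cd4 of 9 lymphocyte genes and Alas2 of 3 erythroid genes fell. No neutrophil gene of 8 was called between these genotypes. Their part in the member results was not tested.

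The wider pathway was read from gene lists, whose counts stand against the 2.94% of all probesets called between KO and WT mice and the 8.61% called with VPA. Of 14 partners and regulators of NRF2, 0 were called between KO and WT mice. With VPA the small MAF gene Maff (-0.20) and the repressor Bach1 (-0.20) fell and Dpp9, a peptidase that binds KEAP1, rose (0.26). Of 27 further NRF2 targets measured, the exporter Abcc4 rose (0.43) and Aox1 (-0.41) and Ephx2 (-0.28) fell in KO mice. With VPA the heme oxygenase Hmox1 (0.28), the pentose phosphate enzyme Pgd (0.37) and Osgin1 (0.73) rose, and the exporter Abcc2 (-0.18) and Aldh3a2 (-0.28) fell. The median over the 27 was 0.03 for genotype and 0.00 for VPA.

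Of 30 other glutathione enzymes 0 were called between KO and WT mice, and with VPA 4 rose: Ggct (0.42), which cuts gamma-glutamyl compounds, Ethe1 (0.30), Cbs (0.16), which starts cysteine synthesis, and Gstcd (0.13). Of 16 peroxiredoxin, thioredoxin and superoxide genes the extracellular superoxide dismutase Sod3 rose in KO mice (0.47), and Txnrd3 fell with VPA (-0.16). Taken by genotype, genes of these and the NRF2 lists were called with VPA in HZ mice, with 0 in WT and 0 in KO mice. The shares of all probesets were 10.5%, 0.0703% and 0.0112%, and such counts alone do not show that the genotypes differed. The list genes were not refitted with the clock index.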

How the data were processed

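Liver RNA was hybridised to Affymetrix Mouse Gene 1.0 ST arrays. The authors deposited log2 expression per probeset. Per the submitters' notes these values come from RMA (Affymetrix Expression Console 1.1.2800.28061). RMA subtracts background, quantile-normalizes the arrays and summarizes probes, so small shifts shared by most genes are removed. The genome build is not given in the sources used here. No array was left out. Group means were fitted to all 48 arrays with limma 3.58.1 in R 4.3.3 (42 residual degrees of freedom, eBayes), p-values were adjusted by Benjamini-Hochberg over 35556 probesets, and calls needed an adjusted p under 0.05. The fits were tested on simulated data. A gene was represented by its probeset with 1 symbol and the highest mean, and called members were named with values. Members and lists were chosen with earlier results of these data known. The labels do not say whether mice came from separate litters. The p-values set group differences against the spread between these mice, pooled over the 6 groups. Replicate numbers were checked for pairing. Same-numbered arrays of different groups were slightly more alike than others, with a mean residual correlation of 0.0546 against -0.0078. The main fit held no block for the number, and a fit with one is given in the closing section. Promoter windows came from RefSeq. Relations were computed in Python 3.11.15 with scipy 1.17.1, and figures drawn with matplotlib 3.10.9. Arrays give no read depth, and their number limits the precision. Alternatives are listed in the closing section.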

Additional observations from a re-analysis of the deposited data

Results flagged for a closer look

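In 8 of 210 groups of 8 mice (35 units in 6 groups) 1 mouse lay far from the others, or 3.81% where chance flags about 5%. They were Gsta3 in KO SAL replicate 3 (13.53 on the log2 scale, next 13.34), Gsta4 in WT VPA replicate 5 (9.28, next 10.38), Gstm4 in WT SAL replicate 1 (12.23, next 11.85), Gstk1 in WT VPA replicate 3 (12.75, next 12.52), Gsto1 in WT VPA replicate 5 (9.39, next 9.94) and in KO VPA replicate 7 (9.75, next 10.09), Gsr in HZ SAL replicate 1 (9.90, next 10.40) and Ces2a in HZ VPA replicate 8 (10.09, next 10.36). The WT VPA mouse of replicate 5 appears for both Gsta4 and Gsto1.

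The response of Gstt2 to VPA differed between genotypes by the interaction test (F = 13.02, adjusted p = 0.0416, limma). The difference of the VPA effect between KO and HZ mice was 0.92 on the log2 scale (adjusted p = 0.0137), with VPA lower than saline in WT and HZ mice.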

How the results depend on the processing

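The alternatives were other moderation of the variances, each array centred on its median, only probesets with 1 symbol or a group mean of at least 5 (30285 probesets), the mean of the probesets of a gene, a replicate block, only the arrays compared, a clock index as covariate, and each of 48 arrays left out. Added after seeing the data were the index of sex-biased genes and the unadjusted thresholds of the study. Of 34 member differences called, 32 kept their direction in every fit, 25 kept their call in all 48 fits without 1 array, and 0 kept it in all settings. With the index of sex-biased genes Gstt3 (-0.008444) and Nqo1 (-0.16) reversed between KO and WT mice, and the counts of units called were 0 for KO against WT, 0 for KO against HZ, 0 for KO against WT in saline and 1 under VPA. With the clock index they were 3 for KO against WT, 0 for VPA, 0 for the interaction, 0 for KO against WT under VPA and 0 for VPA in HZ mice, although several differences that lost their call did not shrink (Gsta4 0.45, Nqo1 0.58 and Cbr1 0.48 between KO and WT mice, and Mgst3 0.96 and Gstp1 -0.76 under VPA). The thresholds of the study gave 0 for KO against WT, where it asks for a change of more than 2-fold, and 3 for the interaction. The interaction count was 0 without moderation, 0 with centred arrays and 0 with the replicate block. For KO against WT in saline it was 0 with only those arrays. The cause of these changes was not tested, and the shares of all probesets called in the alternative fits were not computed.

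Same-numbered arrays of different groups had a residual correlation over 0.1 in 53 of 120 pairs (mean 0.0546). Pairs with different numbers had a mean of -0.0078. For 11 of 48 arrays the nearest array carried the same number. With the replicate block 11 units were called for KO against WT, 6 for KO against HZ and 4 for VPA, and apart from the Gstt2 interaction no call among the 34 was lost.

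Leaving out 1 array gave 8 to 11 units for KO against WT, 5 to 8 for KO against HZ, 4 to 6 for VPA, 2 to 5 for KO against WT in saline (5 without KO SAL replicate 1), 2 to 4 under VPA (2 without WT VPA replicate 4, KO VPA replicate 4 or 5), 4 to 6 for VPA in HZ mice, and 0 or 1 for the interaction. The interaction count fell to 0 without any of 24 arrays: replicates 3 and 5 of WT SAL, 3, 4, 5, 6 and 8 of HZ SAL, 4, 5 and 7 of KO SAL, 4, 6 and 8 of WT VPA, 1, 2, 4, 6, 7 and 8 of HZ VPA, and 2, 4, 6, 7 and 8 of KO VPA. The Gstm2 call between KO and WT mice ended without replicate 2, 3 or 8 of WT SAL, 2, 4 or 5 of KO SAL, 1, 2 or 5 of WT VPA, or 1, 2, 4 or 8 of KO VPA. That of Gstt3 between KO and HZ mice ended without replicate 2 of HZ SAL, 2, 4 or 5 of KO SAL, 1 or 6 of HZ VPA, or 2, 4, 5 or 8 of KO VPA.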
